A study of Homo sapiens with 66 samples.

Results

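The sestrins SESN1, SESN2 and SESN3, the GADD45 genes GADD45A, GADD45B and GADD45G, DDIT4 and the polo-like kinases PLK2 and PLK3 were followed in acute myeloid leukaemia (AML) cell lines before and after etoposide. These 9 genes were picked by symbol from the 57992 gene identifiers counted in every library. Etoposide traps topoisomerase II on broken DNA, so cells exposed to it carry double-strand breaks. Poly(A) RNA was sequenced from 11 lines, THP-1, OCI-AML3, OCI-AML2, NOMO-1, NB-4, MV-4-11, MONO-MAC-6, MOLM-13, KASUMI-1, HL-60 and F-36P. Each line gave 3 libraries from untreated cells in medium alone and 3 from cells kept for 24 hours in etoposide at the half-maximal inhibitory concentration of that line, 66 libraries in all. No line carried an engineered change, and each library came from cells of 3 pooled wells. The dose differed between lines, so values of different lines stand side by side and a difference between lines cannot be told apart from a difference in dose. In bulk RNA, fewer cells of a kind and less RNA per cell cannot be told apart. The replicates are called biological by the submitters, and nothing says how far apart the cultures were started, so p-values measure the spread between these libraries.

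The 9 genes are textbook responders to damage and metabolic stress. Sestrins bind GATOR2 and restrain the growth kinase mTORC1, with SESN1 known as a p53 target, SESN2 as a target of p53 and of the amino acid stress factor ATF4, and SESN3 as a FOXO target. DDIT4 (REDD1) restrains mTORC1 through the TSC complex and answers hypoxia, glucocorticoids, p53 and ATF4. The GADD45 proteins are small acidic partners of PCNA, CDK1 and the kinase MAP3K4, GADD45A being a classical p53 target and GADD45B a target of NF-kB. PLK2 and PLK3 are stress-inducible kinases of the polo-like family, unlike PLK1, which drives mitosis.

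Each gene sits alone on its strand in the exons counted. On GRCh38, SESN1 lies at chr6:108984309-109094846 on the minus strand, SESN2 at chr1:28259518-28282491 on the plus strand and SESN3 at chr11:95165513-95232541 on the minus strand. GADD45A lies at chr1:67685201-67688334, GADD45B at chr19:2476122-2478259 and GADD45G at chr9:89605012-89606555, all on the plus strand. DDIT4 lies at chr10:72273919-72276036 on the plus strand, PLK2 at chr5:58453982-58460139 on the minus strand and PLK3 at chr1:44800377-44805990 on the plus strand. Exons of genes on the opposite strand cover 363 bases of SESN1, 98 of SESN3 and 98 of PLK3, and no exon on the same strand shares a base with any of the 9.

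RefSeq start-site windows (GRCh38.p14, 250 bases before to 50 after the start) were found for 8 of the 9 genes, 10 windows in all, SESN1 having 3. The stretches below lie just upstream of a start and are shown because these genes moved in different lines, printed 5′ to 3′ on the gene's own strand. Capitals mark a p53 half-site in SESN1, inverted CCAAT boxes (ATTGG) in SESN2 and DDIT4, an E-box, CCAAT boxes and a TATA box in GADD45B, a p53 half-site and a cyclic-AMP type element in PLK2, and the C/EBP-ATF response element TGATGNAA in PLK3.
SESN1, chr6:109008989-109009108, minus strand, before the innermost start: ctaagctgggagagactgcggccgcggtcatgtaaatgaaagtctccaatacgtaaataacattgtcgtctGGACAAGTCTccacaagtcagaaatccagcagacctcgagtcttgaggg
SESN2, chr1:28259358-28259517, plus strand: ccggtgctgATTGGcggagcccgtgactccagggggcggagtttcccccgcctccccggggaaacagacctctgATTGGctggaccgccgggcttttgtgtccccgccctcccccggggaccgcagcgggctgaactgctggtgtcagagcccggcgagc
DDIT4, chr10:72273764-72273918, plus strand: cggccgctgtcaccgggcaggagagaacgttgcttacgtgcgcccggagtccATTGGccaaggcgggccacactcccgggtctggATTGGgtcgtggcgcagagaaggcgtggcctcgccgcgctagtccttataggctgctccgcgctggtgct
GADD45B, chr19:2475947-2476121, plus strand: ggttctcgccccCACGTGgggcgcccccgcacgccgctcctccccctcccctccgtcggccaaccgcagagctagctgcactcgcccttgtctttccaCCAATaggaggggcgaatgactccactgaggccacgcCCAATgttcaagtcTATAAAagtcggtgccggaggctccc
PLK2, chr5:58460140-58460226, minus strand: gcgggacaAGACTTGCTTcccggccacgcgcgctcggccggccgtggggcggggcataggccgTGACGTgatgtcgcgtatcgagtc
PLK3, chr1:44800217-44800376, plus strand: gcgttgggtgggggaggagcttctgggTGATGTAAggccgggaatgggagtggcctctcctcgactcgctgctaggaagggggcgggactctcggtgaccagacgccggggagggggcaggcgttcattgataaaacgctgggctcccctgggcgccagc

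Motifs were searched on both strands of the whole windows, and a match is a description of letters and not a bound site. The p53 half-site was in 6.63% of all 35116 promoter windows and in 2 of the 10 windows of these genes, those of SESN1 and PLK2. TGATGNAA was in 3.62% of all windows and in those of PLK3 and GADD45G, and the E-box CACGTG was in 7.26% of all windows and in those of GADD45B and GADD45G. CCAAT was in 34.61% of all windows and in 6 of these 10, the TATA box TATAAA in 11.53% of all and in that of GADD45B. The element TGACGT was in 7.98% of all windows and in that of PLK2, and the related TGANGTCA in 7.72% of all and in that of SESN3. The NF-kB decamer was in 5.91% of all windows and in that of SESN2. A letter search of a window of 300 bases says nothing about sites in introns or farther upstream.

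The libraries held between 17997404 and 24101670 reads on genes (median 20241014), so a count of 0 in all 3 untreated libraries of a line allows 0.0462 to 0.0535 CPM (counts scaled to 1000000 reads a library) by the limit of 3 reads, which covers counting error only. All lines carried RNA of the leukocyte gene PTPRC (32.5 to 540 CPM untreated), of the myeloid factor SPI1 and of CD33, and F-36P also carried the erythroid genes GATA1 and KLF1 (253 and 231 CPM). Markers of B cells and fibroblasts stayed low, at most 2.68 CPM for MS4A1 and 1.42 for COL1A1. CD68, a lysosomal marker of macrophages, was at most 0.844 CPM in any line. The other monocytic genes looked at, CD14, FCGR1A and CSF1R, are not reported here, so CD68 alone does not describe the monocytic character of a line. The study set the treated OCI-AML2 libraries aside on read quality, so that line is given apart and the counts below are over the other 10.

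Etoposide raised at least 1 of these genes past 2-fold in 7 of the 10 lines and lowered none of them by more than 2-fold. A gene was called when the Benjamini-Hochberg adjusted p of edgeR's quasi-likelihood test was below 0.05 and the fold change was above 2. Of 79 pairs of gene and line that passed the filter on low counts, 27 were called higher (34.2%) and 0 lower, against 11.1% higher and 3.96% lower over all genes and the same 10 lines. By the adjusted p alone, 51 pairs were higher and 9 lower, beside 27.7% and 24.4% of all gene and line pairs. In 60 of the 79 pairs the 3 treated libraries did not overlap the 3 untreated ones, and that share over all genes is not given here. Every gene but SESN3 was called in at least 1 line. SESN2 was called in 6 lines, GADD45A and PLK3 in 5 each, PLK2 in 4, DDIT4 in 3, SESN1 in 2, and GADD45B and GADD45G in F-36P alone. GADD45G passed the filter only in F-36P and only through the treated libraries, so it had to be higher there, and without it 26 of 78 pairs were called higher (33.3%).

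The lines fell far apart in how many of the genes they raised. OCI-AML3 raised 6 of the 8 tested (7.18% of all genes tested in that line were called higher) and NOMO-1 5 of 8 (8.34%). MOLM-13 and MONO-MAC-6 raised 4 of 8 each (8.59% and 8.53%), and F-36P raised 4 of 9 in a line where 24.3% of all genes were called higher, or 3 of 8 without GADD45G. THP-1 raised 3 of 8 (6.38%) and NB-4 1 of 7 (13.2%). HL-60 raised 0 of 7 (5.34%), KASUMI-1 0 of 8 (14.6%) and MV-4-11 0 of 8 (12.5%), although by the adjusted p alone 3 of the genes were higher in HL-60 (17.5% of all genes), 1 in KASUMI-1 (31.5%) and 7 in MV-4-11 (33.5%). The median log2 fold change of the genes tested was 1.996 in OCI-AML3, 1.02 in MOLM-13 and NOMO-1, and -0.04 and -0.05 in HL-60 and KASUMI-1, where the median of all genes was near 0. Treated F-36P libraries held reads on 29738 to 30168 genes against 20999 to 21285 before treatment, and KASUMI-1 on 24884 to 25445 against 19654 to 19932, and the part of this in their values was not tested.

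**Figure D1:**
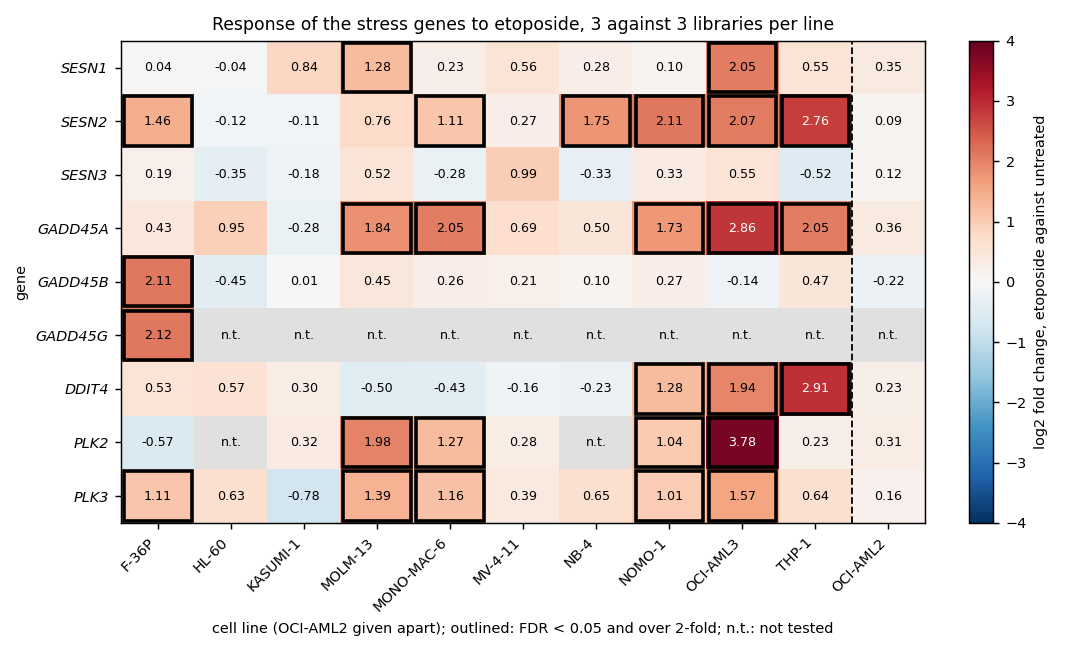
Log2 fold change of each of the 9 genes (rows) in each line (columns) after 24 hours of etoposide, on a colour scale from blue (lower) to red (higher), with a black outline where the change was called, n.t. where too few reads were counted, and OCI-AML2 apart at the right. OCI-AML3 has 6 outlined genes, while the columns of HL-60, KASUMI-1 and MV-4-11 have none.

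SESN1 rose in MOLM-13 and OCI-AML3. In OCI-AML3 it stood at 37.1, 33.3 and 38.6 CPM in the untreated libraries and at 154, 148 and 149 CPM in the treated ones, a log2 fold change of 2.05 (SE 0.077, adjusted p = 8.61e-07). In MOLM-13 it went from 56.7, 56.5 and 55.5 CPM to 144, 132 and 132 CPM, a log2 fold change of 1.28 (SE 0.068, adjusted p = 8.05e-07). Neither pair of groups overlapped, and in both lines each treated library stood at more than 2 times the level of any untreated one. Below 2-fold, KASUMI-1 was higher by 0.84 on the log2 scale, from 16.2 ± 0.963 to 29 ± 0.858 CPM (SD, n = 3), MV-4-11 by 0.56, THP-1 by 0.55 and MONO-MAC-6 by 0.23, all past the adjusted p. In F-36P, HL-60 and NOMO-1 the groups overlapped, with log2 fold changes of 0.04, -0.04 and 0.10. NB-4 had untreated libraries at 18, 19.2 and 22.3 CPM and treated ones at 27, 22.8 and 22.4 CPM (adjusted p = 0.0543, and 0.0288 with the replicate number as a block). The p53 half-site printed above lies in a SESN1 start window inside the gene, and the counts do not tell the transcript forms apart.

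SESN2 rose in more lines than any other of the 9. In THP-1 it stood at 8.75, 8.66 and 8.93 CPM untreated and at 53, 76.8 and 48.4 CPM after etoposide, a log2 fold change of 2.76 (SE 0.17, adjusted p = 2.05e-09). In NOMO-1 it went from 14.6, 16.9 and 19.7 to 75.1, 79.2 and 67.4 CPM (log2 fold change 2.11), and in OCI-AML3 from 27.4, 24.5 and 22.3 to 92.8, 103 and 116 CPM (2.07). All treated libraries of these 3 lines stood well above the untreated ones, although those of THP-1 spread from 48.4 to 76.8 CPM. NB-4 rose by 1.75 on the log2 scale, from 18.2 ± 3.1 to 61.4 ± 6.89 CPM (SD, n = 3). F-36P went from 31.8 ± 1.87 to 87.6 ± 3.61 CPM (1.46) and MONO-MAC-6 from 52.8 ± 5.56 to 114 ± 6.79 CPM (1.11). MOLM-13, which raised SESN1, reached only 42 ± 2.67 from 24.8 ± 1.99 CPM for SESN2 (0.76, adjusted p = 5.61e-05), and MV-4-11 0.27. HL-60 and KASUMI-1 showed overlapping groups, with log2 fold changes of -0.12 and -0.11 (adjusted p = 0.581 and 0.356). HL-60 held the highest untreated level, with libraries at 59.1, 89.8 and 76.5 CPM, followed by MONO-MAC-6, which rose.

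SESN3 was called in 0 lines and moved in both directions. It stood high in OCI-AML3 and THP-1, and there the changes were opposite. OCI-AML3 went from 312, 284 and 302 to 471, 429 and 412 CPM (log2 fold change 0.55, adjusted p = 0.000504), while THP-1 went from 343, 315 and 278 to 225, 175 and 253 CPM (-0.52, adjusted p = 0.00812). Groups did not overlap in either line. In MV-4-11 SESN3 was near the bottom of its range and went from 3.31, 4.27 and 3.08 to 7.04, 7.26 and 6.77 CPM, a log2 fold change of 0.99 that lay just under the 2-fold limit (adjusted p = 5.02e-06). MOLM-13 was higher by 0.52. Lower values past the adjusted p were seen in HL-60 (-0.35), NB-4 (-0.33, with groups that overlapped) and MONO-MAC-6 (-0.28), while KASUMI-1, F-36P and NOMO-1 had overlapping groups.

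DDIT4 joined SESN2 in 3 lines and parted from it in others. In THP-1 it rose from 8.7, 13 and 12.5 to 75.4, 101 and 80.1 CPM, a log2 fold change of 2.91 (SE 0.17, adjusted p = 8.76e-10). OCI-AML3 went from 26, 39.1 and 23.7 to 115, 105 and 121 CPM (1.94, adjusted p = 8.11e-05), and NOMO-1 from 73.3, 74.7 and 76.3 to 178, 208 and 159 CPM (1.28, adjusted p = 1.26e-06). None of these groups overlapped. In MONO-MAC-6, where SESN2 rose, DDIT4 was lower, from 357, 456 and 457 to 290, 337 and 316 CPM (-0.43, adjusted p = 0.00103). F-36P and HL-60 were higher by 0.53 and 0.57, past the adjusted p and under 2-fold. The untreated libraries of NB-4 spread over 99.6, 194 and 278 CPM and those of MOLM-13 over 47.3, 79.9 and 101 CPM, so changes of -0.23 and -0.50 in these lines did not pass the test. With the replicate number as a block, MOLM-13 stood at -0.46 with an adjusted p of 0.00198, and the fold change stayed under 2.

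GADD45A rose in 5 lines and was the most widely moved of the GADD45 genes. OCI-AML3 went from 5.46, 5.52 and 5.26 to 39.4, 36.2 and 42.3 CPM, a log2 fold change of 2.86 (SE 0.096, adjusted p = 6.47e-07). MONO-MAC-6 went from 7.65, 9.05 and 8.44 to 35.9, 34.2 and 34.4 CPM (2.05) and THP-1 from 14.8, 19.3 and 18.1 to 64, 85.1 and 66.6 CPM (2.05). No treated library of these lines came near an untreated one. MOLM-13 rose by 1.84, from 8.02 ± 0.336 to 28.7 ± 0.831 CPM (SD, n = 3), and NOMO-1 by 1.73, from 33.3 ± 4.39 to 111 ± 8.33 CPM. HL-60 lay just under 2-fold at 0.95 (adjusted p = 0.000836), with treated libraries at 42.9, 38.8 and 63.6 CPM over untreated ones at 21.5, 25.7 and 28.2 CPM. MV-4-11, NB-4 and F-36P were higher by 0.69, 0.50 and 0.43 past the adjusted p. KASUMI-1 went the other way, from 19.9, 20.2 and 20.8 to 16.1, 17.7 and 16.5 CPM (-0.28, adjusted p = 0.0261). That pair did not pass with library size alone (adjusted p = 0.343) or in 1 fit of 60 libraries (0.128). Nor did it pass when any of its untreated libraries was left out (0.0503 to 0.0653).

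GADD45B moved little outside F-36P. In F-36P it rose from 1.86, 2.03 and 1.84 to 7.83, 7.36 and 9.56 CPM, a log2 fold change of 2.11 (SE 0.18, adjusted p = 9.15e-06), which still left it under the untreated level of each of the other lines. HL-60 was lower by 0.45 on the log2 scale, from 33.3, 40.3 and 40.9 to 26.1, 32.5 and 25.4 CPM (adjusted p = 0.0139). MOLM-13, THP-1, MONO-MAC-6 and MV-4-11 were higher by 0.45, 0.47, 0.26 and 0.21 past the adjusted p, and the groups of THP-1 overlapped. OCI-AML3, which raised most of the other genes, held GADD45B at 23.4 ± 2.05 CPM untreated and 21.3 ± 3.31 CPM treated (SD, n = 3). GADD45G was almost silent. Only F-36P passed the filter, through its treated libraries, with 7, 2 and 1 reads in the untreated libraries and 11, 28 and 13 in the treated ones (log2 fold change 2.12, SE 0.63, adjusted p = 0.0139), and the call was lost without untreated replicate 2 (adjusted p = 0.0526) or without etoposide replicate 2 (0.056). At a mean of at least 5 CPM the gene was not tested. In the other lines no library exceeded 0.498 CPM.

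PLK2 held the largest change measured among the 9 genes. In OCI-AML3 it went from 3.2, 2.78 and 2.96 to 40.6, 47.2 and 35.7 CPM, a log2 fold change of 3.78 or 13.8-fold (SE 0.14, adjusted p = 7.38e-07). MOLM-13 went from 14, 13.9 and 13.9 to 57.5, 51.2 and 56.5 CPM (1.98, adjusted p = 4.12e-07). These are the same 2 lines that raised SESN1 past 2-fold. MONO-MAC-6 rose from a low level, 1.33 ± 0.304 to 3.22 ± 0.0945 CPM (SD, n = 3, log2 fold change 1.27), and NOMO-1 from 9.51 ± 0.851 to 19.6 ± 1.8 CPM (1.04). F-36P, with the highest untreated level, was lower, from 83, 105 and 97.7 to 65.3, 62.1 and 65.8 CPM (-0.57, adjusted p = 0.00246). THP-1 showed overlapping groups (0.23, adjusted p = 0.23), as did KASUMI-1. HL-60 and NB-4 held at most 0.0573 CPM in any library, so no change was detectable there at this depth.

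PLK3 had a smaller largest change than PLK2 and was called in 5 of 10 lines tested, against 4 of 8 for PLK2. Its median log2 fold change over the lines tested was 0.83, against 0.68 for PLK2, which was not tested in HL-60 and NB-4. MOLM-13 went from 8.49, 10.4 and 10.2 to 24.8, 24.6 and 26.8 CPM (log2 fold change 1.39) and OCI-AML3 from 6.44, 6.98 and 7.32 to 21.7, 18.1 and 21.9 CPM (1.57). MONO-MAC-6 rose by 1.16, F-36P by 1.11 and NOMO-1 by 1.01. HL-60, THP-1, NB-4 and MV-4-11 were higher by 0.63, 0.64, 0.65 and 0.39 past the adjusted p and under 2-fold. KASUMI-1 was the exception, with untreated libraries at 13.2, 15 and 16.9 CPM and treated ones at 8.57, 10.1 and 7.73 CPM (-0.78, SE 0.14, adjusted p = 0.000913). The groups did not overlap. Several calls lay at the 2-fold limit, and that of PLK3 in NOMO-1 fell to 0.84 without etoposide replicate 2, 0.94 without untreated replicate 1 and 0.95 without untreated replicate 2, and to 0.98 in 1 fit of 60 libraries. That of PLK3 in F-36P fell to 0.98 without untreated replicate 3 and 0.96 without etoposide replicate 3, and to 0.997 without the filter, and PLK2 in NOMO-1 fell to between 0.96 and 0.99 without untreated replicate 2, etoposide replicate 1 or etoposide replicate 2.

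**Figure D2:**
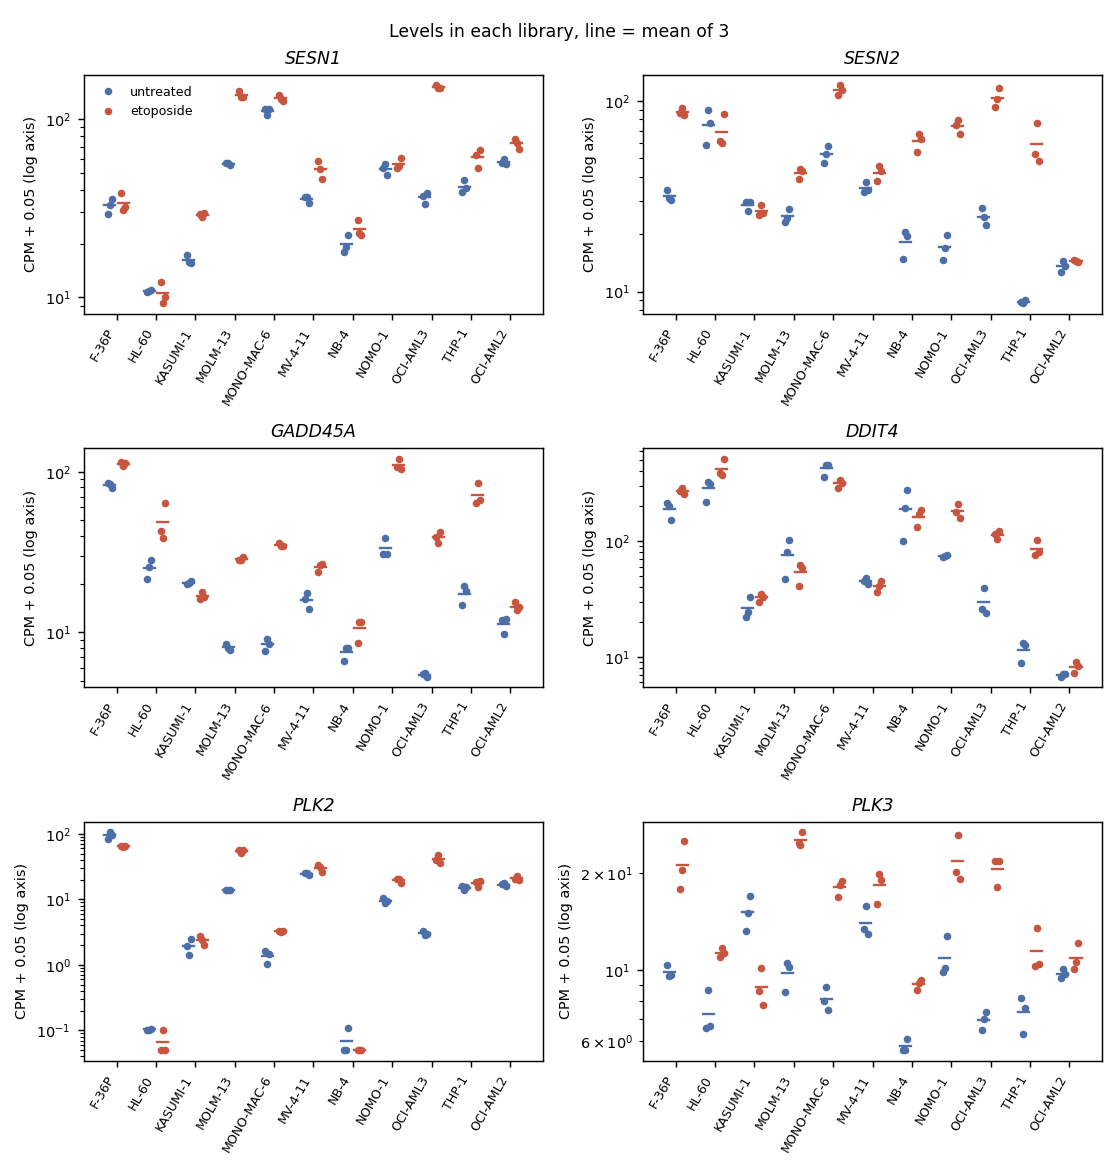
Level in CPM plus 0.05 (vertical log axis) of SESN1, SESN2, GADD45A, DDIT4, PLK2 and PLK3 in each library of 11 lines (horizontal axis), blue for untreated and red for etoposide, with a short bar at the mean of 3. The distance between colours is widest for PLK2 and GADD45A in OCI-AML3 and for SESN2 and DDIT4 in THP-1, and PLK2 of HL-60 and NB-4 lies at the bottom of its panel.

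Whether the response differed between lines was tested with the line-by-treatment term in 1 fit of 60 libraries, which 74.5% of 19974 genes passed. SESN1, SESN2, SESN3, GADD45A, GADD45B, DDIT4, PLK2 and PLK3 passed (adjusted p from 2.34e-24 for PLK2 to 1.01e-07 for SESN3), and GADD45G did not (adjusted p = 0.414). Read against that background, passing does not set these genes apart. The test shares its libraries with the changes above and says where each gene moved more or less.

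Against the mean of the other 9 lines, OCI-AML3 exceeded by 1.58 on the log2 scale for SESN1, 1.71 for GADD45A, 1.42 for DDIT4, 0.92 for SESN2 and 0.84 for PLK3, all past the adjusted p (6.73% of all genes responded more in OCI-AML3). THP-1 exceeded by 2.55 for DDIT4, 1.73 for SESN2 and 0.86 for GADD45A (11% of all genes), and fell short for SESN3, at -0.66 (14.2%). MOLM-13 exceeded by 0.80 for SESN1, 0.72 for PLK3 and 0.66 for GADD45A (12.4%), and fell short for DDIT4, at -1.20 (12.6%). F-36P exceeded by 1.999 for GADD45B (15.9%). It fell short for GADD45A, at -0.92, and for SESN1, at -0.59, both past the adjusted p. The share of all genes responding less in F-36P is not given here. KASUMI-1 fell short for GADD45A (-1.71), PLK3 (-1.70) and SESN2 (-1.44), where 14.6% of all genes responded less. HL-60 fell short for SESN2 (-1.47), GADD45B (-0.86) and SESN1 (-0.70), with 7.55% of all genes responding less. SESN3 in MV-4-11 exceeded by 1.01 (7.75%), while SESN2 in that line fell short by 1.02 on the log2 scale (5.45%). DDIT4 in MONO-MAC-6 fell short, at -1.20 (11.1%). GADD45A in MONO-MAC-6 exceeded, at 0.82, and GADD45B in OCI-AML3 fell short, at -0.56. NOMO-1 and NB-4 lay above the other lines for SESN2 (0.95 and 0.63) and below them for SESN1 (-0.61 and -0.32). These pairs passed the adjusted p, and their shares over all genes are not given here. Further pairs past the adjusted p, in both directions, are not listed. PLK2 is left out of these values because 2 of the 10 lines hold almost no reads of it.

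Beside the 9 genes stood other genes known to answer the same regulators. A list of 22 p53 targets had a median log2 fold change of 1.88 in OCI-AML3 (20 of 22 called higher) and 1.11 in MOLM-13 (12 of 21), the 2 lines in which SESN1 was called and PLK2 rose most. It was 0.75 in MONO-MAC-6 and 0.66 in NOMO-1, and between 0.19 in NB-4 and 0.53 in KASUMI-1 in the others. The list's genes called higher were 6 of 21 in MONO-MAC-6, 7 of 20 in NOMO-1 and in F-36P, 8 of 20 in KASUMI-1, 7 of 21 in MV-4-11, 4 of 21 in THP-1, 2 of 19 in HL-60 and 2 of 18 in NB-4. KASUMI-1 and MV-4-11, where none of the 9 genes was called, had more of the list called than THP-1 or NB-4. CDKN1A, the p53-induced inhibitor of cyclin-dependent kinases, was called higher in 10 of 10 lines (log2 fold change 1.86 to 5.46), as was BTG2 (1.29 to 4.48).

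A list of 15 ATF4 targets divided the lines in another way. Its median log2 fold change was 1.75 in THP-1 (12 called higher), 1.61 in NOMO-1 (10), 0.98 in NB-4 (7 of 14 tested), 0.89 in F-36P (6), 0.72 in MONO-MAC-6 (6) and 0.53 in OCI-AML3 (6). It was below 0 in HL-60 (-0.17, 4 called higher and 0 lower) and KASUMI-1 (-0.33, 2 called higher and 5 lower). It was also below 0 in MV-4-11 (-0.46, 3 called lower) and MOLM-13 (-0.79, 6 called lower). The 6 lines with a median above 0 were the 6 in which SESN2 was called. Among the list's members, ATF3, a stress transcription factor, was called higher in 8 lines and DDIT3, the apoptosis-linked factor CHOP, in 7, and CHAC1, which degrades glutathione, was higher in 5 and lower in 2 of 9. ATF4 RNA was called higher in 0 lines and lower in 1, MV-4-11 (-1.21).

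The NF-kB list, 12 genes known to answer that factor, was read beside GADD45B. Its median log2 fold change was 2.26 in HL-60 (10 of 10 tested called higher), 2.05 in MONO-MAC-6 (10 of 12), 1.75 in KASUMI-1 (8 of 9), 1.60 in NOMO-1 and 1.58 in F-36P. It was 1.08 in THP-1, 1.07 in MV-4-11, 0.55 in MOLM-13, 0.43 in NB-4 and -0.13 in OCI-AML3. CXCL8, a neutrophil chemokine, was called higher in 10 lines, RELB, a subunit of NF-kB, in 8 and ICAM1, an adhesion molecule, in 8. GADD45B was called in F-36P alone, and was lower in HL-60, where each tested gene of the list rose.

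Over the 10 lines, the change of SESN2 and the median of the ATF4 list had a Pearson r of 0.86 (Spearman rho 0.81), and r was 0.88 in the 8 lines left without MOLM-13 and THP-1, which lie farthest from the middle of the list's range. SESN1 and the p53 list had an r of 0.88 (rho 0.60) that was 0.14 without OCI-AML3 and MOLM-13, so the relation rests on those lines. GADD45A and the p53 list had an r of 0.73 (rho 0.71), and 0.51 without the same pair of lines. DDIT4 and the ATF4 list had 0.62 (rho 0.54), and 0.27 without MOLM-13 and THP-1. GADD45B and the NF-kB list had 0.06. SESN1 and the NF-kB list had -0.75 (rho -0.66), and -0.42 without OCI-AML3 and HL-60. The pairs not named here had an r between -0.45 and 0.53. These are descriptions of 10 lines from 21 pairs of gene and list, each point sharing its libraries, dose and scaling between both values, and no test was made.

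**Figure D3:**
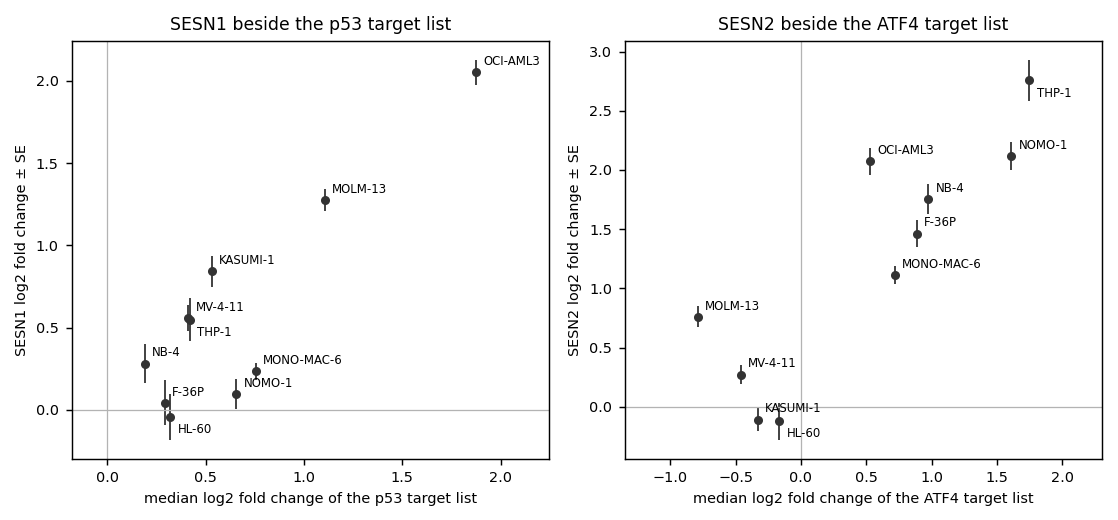
Log2 fold change ± SE of SESN1 against the median log2 fold change of the p53 list (left) and of SESN2 against that of the ATF4 list (right), 1 point for each of 10 lines. SESN1 lies highest in OCI-AML3 and MOLM-13, at the right end of the p53 axis, and the 6 lines right of 0 on the ATF4 axis are the 6 with SESN2 above 1 on its own axis.

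Few partners of these proteins changed by more than 2-fold. Of 18 genes on the mTORC1 route, among them the GATOR and TSC subunits, 0 to 2 were called lower in a line and at most 1 higher, with medians from -0.34 in KASUMI-1 to -0.03 in THP-1. Of their gene and line pairs 3.09% were called lower and 1.23% higher, beside 3.96% and 11.1% of all pairs. By the adjusted p alone 9 of 17 were lower in KASUMI-1, 8 of 16 in NOMO-1, 7 of 16 each in NB-4, MV-4-11, F-36P, MONO-MAC-6 and MOLM-13, 3 in HL-60 and 2 each in OCI-AML3 and THP-1. That is 36.4% of the list's gene and line pairs lower and 14.2% higher, beside 24.4% and 27.7% of all pairs. The GATOR2 subunit SEH1L was called lower in 3 lines and RPTOR, the mTORC1 scaffold, in 2, while DDIT4L, a relative of DDIT4, rose in KASUMI-1 (2.11) and THP-1 (2.80). Of the 10 lines, DDIT4L passed the filter on low counts only in these 2, so its change elsewhere was not tested. Of 11 partners of the GADD45 proteins, 0 were called higher in any line and 0 to 2 lower (7.41% of their pairs, beside 3.96% of all), MAP2K6, a kinase that activates p38, being lower in 4 lines. By the adjusted p alone 8 of 11 were lower in MOLM-13, 7 in MONO-MAC-6, 6 each in MV-4-11 and NB-4, 6 of 10 in F-36P and 0 in HL-60, 44.4% of their pairs beside 24.4% of all. Their median log2 fold change ran from -0.53 in F-36P to -0.02 in HL-60. FOXO factors and targets gave 0 to 2 genes called higher per line (15.4% of their pairs) and 0 lower except 2 in NB-4 and 1 in F-36P (3.85%), with KLF2, PIK3IP1 and TXNIP called higher in 4 lines each. PLK1, the mitotic relative of PLK2 and PLK3, went the other way, called lower in MV-4-11 (-1.06), NOMO-1 (-1.27), MOLM-13 (-1.27) and F-36P (-1.37). PLK4, which builds centrioles, was called higher in 1 line and lower in 1.

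The genes also differed between the lines before treatment. All 8 genes tested differed over the 11 lines, as did 99.4% of 18130 genes, in a fit of the 33 untreated libraries scaled together, so these levels differ slightly from those above. Per kilobase of exon, the median level over lines was 31.6 CPM for DDIT4, 9.02 for GADD45B, 7.70 for GADD45A, 7.45 for SESN2, 4.95 for SESN1, 3.87 for SESN3, 2.79 for PLK3, 1.83 for PLK2 and 0.0128 for GADD45G. DDIT4 was thus the most abundant per length and GADD45G the least.

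SESN1 ran from 107 CPM in MONO-MAC-6, then 58.5 in MOLM-13 and 57.4 in OCI-AML2, which did not differ (adjusted p = 0.811), to 16.2 in KASUMI-1 and 10.0 in HL-60. Between these stood NOMO-1 (46.9), THP-1 (40.7), OCI-AML3 (36.03), MV-4-11 (33.2), F-36P (30.8) and NB-4 (18.9), and 7 of the 10 neighbouring pairs in that order differed. SESN2 ran from HL-60 (70.1) and MONO-MAC-6 (50.7) through MV-4-11 (32.5), F-36P (30.1), KASUMI-1 (28.5), MOLM-13 (25.8), OCI-AML3 (24.5), NB-4 (17.3), NOMO-1 (15.3) and OCI-AML2 (13.5) to THP-1 (8.54), with 4 neighbouring pairs that differed. HL-60 was therefore lowest for one sestrin and highest for another. SESN3 had the widest range of the sestrins. It stood at 304 CPM in THP-1 and 297 in OCI-AML3, which did not differ (adjusted p = 0.841), at 205 in KASUMI-1, at 62.2 in OCI-AML2, 49.4 in NB-4, 41.0 in F-36P, 39.9 in MONO-MAC-6, 29.3 in HL-60, 13.0 in NOMO-1 and 10.2 in MOLM-13, and at 3.32 in MV-4-11. For SESN3, 8 of the 10 neighbouring pairs differed.

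DDIT4 ran from 407 CPM in MONO-MAC-6 and 266 in HL-60 to 11.1 in THP-1 and 6.89 in OCI-AML2. Between them NB-4 (181) and F-36P (178) did not differ (adjusted p = 0.97), followed by MOLM-13 (79.2), NOMO-1 (66.9), MV-4-11 (42.4), OCI-AML3 (29.4) and KASUMI-1 (26.4). THP-1, lowest for SESN2 and second lowest for DDIT4, raised both most. The untreated libraries enter both the untreated level and the fold change, and a link between them was not tested. GADD45A stood at 78.4 CPM in F-36P, 29.8 in NOMO-1, 23.4 in HL-60, 20.3 in KASUMI-1, 16.9 in THP-1, 14.8 in MV-4-11, 11.2 in OCI-AML2, 8.35 in MOLM-13, 8.06 in MONO-MAC-6, 7.13 in NB-4 and 5.37 in OCI-AML3, the line with its largest fold change, and 6 neighbouring pairs differed. GADD45B was even over most lines. It stood at 35.6 CPM in HL-60, between 12.5 in NOMO-1 and 25.6 in KASUMI-1 in 9 lines, and at 1.804 in F-36P, the line that raised it. F-36P was thus highest for GADD45A and lowest for GADD45B among the 11 lines.

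PLK2 ranged widely, and in HL-60 and NB-4 it was hardly detected. It stood at 89.9 CPM in F-36P, 23.2 in MV-4-11, 16.8 in OCI-AML2, 14.7 in THP-1, 14.5 in MOLM-13, 8.51 in NOMO-1, 2.96 in OCI-AML3, 1.89 in KASUMI-1 and 1.28 in MONO-MAC-6, with 0.0499 in HL-60 and 0.018 in NB-4, where the reads were at or under the limit of 3. PLK3 had the narrowest range, from 15.1 CPM in KASUMI-1 and 13.1 in MV-4-11 to 6.76 in HL-60 and 5.44 in NB-4, and only MV-4-11 and MOLM-13 (10.1) differed among its 10 neighbouring pairs. GADD45G reached 0.183 CPM in F-36P and 0.17 in NOMO-1 and at most 0.0499 elsewhere.

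**Figure D4:**
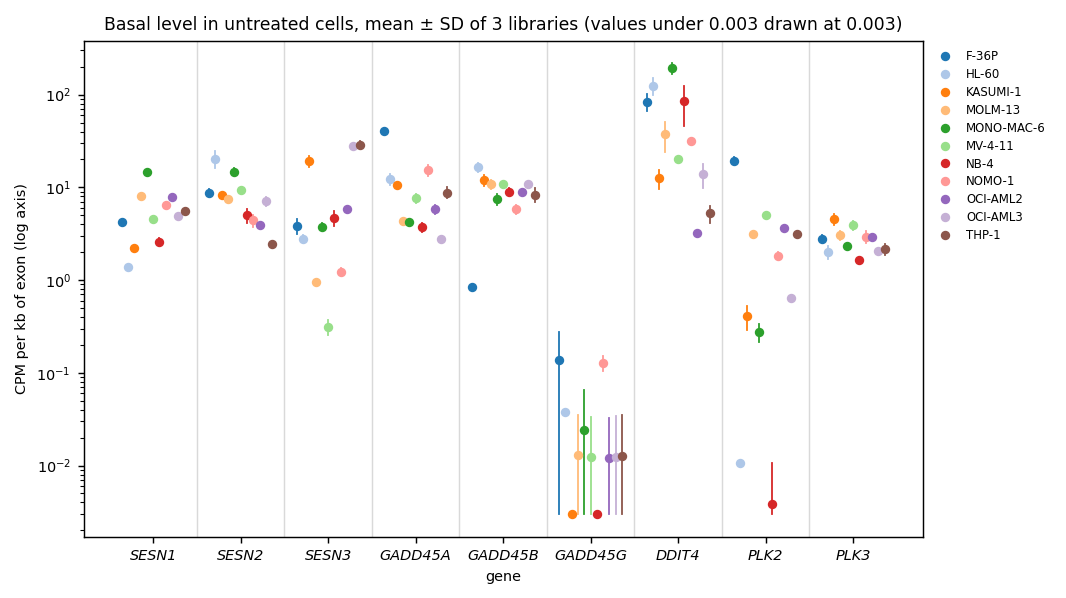
Untreated level in CPM per kilobase of exon (vertical log axis) of the 9 genes, 1 colour for each of 11 lines, points for the mean of 3 libraries and bars for the SD, with values under the floor of the axis drawn at the floor. SESN3 spans 0.314 to 28.7 CPM per kilobase and PLK2 of HL-60 and NB-4 lies far under its other lines, while PLK3 stays between 1.64 and 4.54.

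By Pearson r, the genes most alike in response over 10 lines, out of 10587 compared, were DCP1B (0.95), XPC (0.92) and POLH (0.92) for SESN1, and PSAT1 (0.95), LINC00662 (0.93) and AKIRIN2 (0.90) for SESN2. XPC and POLH belong to the p53 list and PSAT1 to the ATF4 list above. They were ASCC3 (0.95), PARS2 (0.93) and PRRC2C (0.93) for GADD45A, CLCF1 (0.96) and LIX1L (0.94) for GADD45B, and MIR29B2CHG (0.92), SEPTIN7P13 (0.91) and TMEM50B (0.90) for SESN3. DDIT4 had ZNF622 (0.91), RAB3GAP2 (0.90) and TXNDC12 (0.88), and PLK3 had AGAP2 (0.89), DUSP6 (0.87) and CIPC (0.87). In untreated level over 11 lines, out of 13668 genes, the closest were LYZ (0.96) for SESN1, CTH (0.94) for SESN2, LNCRNA-IUR (0.90) for SESN3, TBC1D10A (0.91) for GADD45A, OSBPL1A (0.95) for GADD45B, CLCN6 (0.92) for DDIT4, KYNU (0.95) for PLK2 and EML2-AS1 (0.94) for PLK3. LNCRNA-IUR overlaps SESN3 on the opposite strand. Among the 9 genes themselves the closest pairs were GADD45A and PLK3 in response (0.77) and SESN2 and DDIT4 in untreated level (0.72). With 10 or 11 points and this many genes compared, high values of r arise without any relation, and no test was made.

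In OCI-AML2, whose treated libraries were set aside by the study, 7 of the 8 genes tested were higher. For 6 of the 8 the groups did not overlap. The same shares over all genes are not given here, and the median log2 fold change of all genes was 0.00036. None of the 8 passed the adjusted p without the replicate block, and 3 of 13604 genes (0.0221%) passed it as higher. SESN1 went from 57, 59.4 and 56 to 77.6, 73.7 and 67.8 CPM (log2 fold change 0.35, adjusted p = 0.108, and 0.34 with an adjusted p of 0.0123 with the replicate number as a block, the other 7 not passing) and PLK2 from 17.1, 17.5 and 15.9 to 20.4, 22.4 and 19.8 CPM (0.31). GADD45A was higher by 0.36 and GADD45B lower by 0.22. The largest change of the 8 in that line, that of GADD45A, was 1.28-fold.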

How the data were processed

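The authors deposited 1 table per library of read counts per gene, made from single-end reads of a stranded poly(A) kit. The submitters' processing notes name FastQC 0.11.5, STAR 2.5.3a and edgeR 3.20.1 with GRCh38.p7 and gencode 25. Each table holds a single count column, and its strand setting is not given in the sources used here. Of 716 genes enclosed by a gencode 44 exon on the other strand, 470 held reads. Counting without strand would have set such reads aside as ambiguous only where gencode 25 held the same exon, which was not checked. The 45 duplicate identifiers of the Y pseudoautosomal region held 0 reads and were left out. Symbols and positions came from gencode 44.

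Counts were tested within each line, 3 against 3, by edgeR 4.0.16 in R 4.3.3 (filterByExpr with a minimum count of 10 and total of 15, TMM scaling, quasi-likelihood test, Benjamini-Hochberg adjustment), with calls at an adjusted p below 0.05 and a fold change above 2. The response difference between lines used 60 libraries and the untreated levels 33. Correlations used log2(CPM + 1) or log2 fold changes of genes at 1 CPM or more. The genes named outside the 9 are those of each list called in most lines and, for likeness, the 3 with the highest r of each gene (for untreated levels the first). Some genes that these rules select are not reported here. On simulated counts, 200 of 200 genes planted at a log2 change of 2 in MV-4-11 (13998 genes) were recovered with 1 other call. The alternatives tried were RLE scaling, library size alone, other filters, DESeq2 1.42.0, edgeR's exact test, a replicate block, 1 joint fit and leaving out each replicate. Same-numbered libraries deviated together (r above 0.1 in every pair) in OCI-AML2, NB-4, MONO-MAC-6 and MOLM-13. The 9 genes and the lists were chosen with earlier results of these data known.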

Additional observations from a re-analysis of the deposited data

Results flagged for a closer look

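The response to etoposide differed between the 10 lines by the test of the line-by-treatment term for 8 of the 9 genes. Its F statistic was 85.2 for PLK2, which 2 lines hardly express, 53 for GADD45A, 49.4 for SESN2 and 47 for SESN1. It was 23.2 for PLK3, 22.9 for DDIT4, 16.6 for GADD45B and 9.42 for SESN3. As 74.5% of 19974 genes passed the same test and each line had its own dose, the part of the dose in these differences was not tested.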

How the results depend on the processing

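The count of pairs called higher, 27 in the analysis reported, was 26 with RLE scaling, without the filter, at a mean of at least 5 CPM and with DESeq2, 27 with the exact test and in 1 fit of 60 libraries, 30 with library size alone, and 25 to 27 when 1 replicate was left out. Without a fold change minimum it was 51 higher and 9 lower, and 0 were called lower under all the others. With the replicate block the count was 27 and no call changed. No pair past the adjusted p changed sign under any alternative. The 9 pairs lower by the adjusted p became 5 with library size alone, 4 in 1 fit of 60 libraries, 10 without the filter and 11 with the replicate block. With the block, DDIT4 passed as lower in MOLM-13 (adjusted p = 0.00198) and in MV-4-11 (-0.17, adjusted p = 0.0193). SESN1 passed in NB-4 as a higher pair (0.28, adjusted p = 0.0288). Among the pairs lost with library size alone were SESN3 in HL-60, MONO-MAC-6 and NB-4 (-0.25, -0.16 and -0.12) and GADD45A in KASUMI-1 (-0.10). The cause was not tested. Library size alone shifted the median log2 fold change of all genes by 0.25 in F-36P, 0.21 in NB-4, 0.17 in KASUMI-1 and 0.10 to 0.13 in HL-60, MONO-MAC-6 and MV-4-11. Small changes also depended on single libraries. Without untreated replicate 1, SESN3 in HL-60 and NB-4 (adjusted p = 0.181 and 0.183) and GADD45A in KASUMI-1 (0.0503) no longer passed as lower. GADD45B in MONO-MAC-6, MV-4-11 and THP-1 no longer passed as higher there (0.121, 0.157 and 0.199). Calls near the 2-fold limit were gained for SESN3 in MV-4-11 (1.12 with library size alone, 1.04 at 5 CPM, 1.03 in 1 fit, 1.13 without untreated replicate 2, 1.01 without etoposide replicate 3), GADD45A in HL-60 (1.05 with library size alone, 1.05 without untreated replicate 3, 1.03 without etoposide replicate 1, 1.10 without etoposide replicate 2) and SESN1 in KASUMI-1 (1.02 with library size alone). PLK3 in NOMO-1 was lost with RLE scaling and DESeq2 (0.97 each) and in 1 fit (0.98), PLK3 in F-36P without the filter (0.997) and GADD45G in F-36P at 5 CPM, where it was not tested. The response difference held for 8 genes with RLE scaling, library size alone, no filter, 5 CPM and the replicate block, and without each line or replicate in turn. Depth limits GADD45G in all lines, and PLK2 in HL-60 and NB-4.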
